A study of Homo sapiens with 12 samples.

Results

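The genes described here are the serpins, the type 2 cystatins and the genes of the whey acidic protein (WAP) inhibitors, 57 of the 18404 genes measured. They were taken by symbol: names that begin with SERPIN, names made of CST and a number alone, names that begin with WFDC and a number, and SLPI and PI3, each measured by 1 probe set of the array. Cystatin-related genes with other names, such as CST9L and CST13P, were therefore not among the 57. There were 12 serpins of clade A, 12 of clade B, 9 of clades C to I, 10 cystatins and 14 WAP genes. RNA was profiled in 4 groups of 3 arrays: 2102Ep cells given an siRNA against SOX2 (siSOX2), 2102Ep cells given a non-targeting control siRNA, NTera-2 cells given siSOX2 and NTera-2 cells given the same non-targeting control. Both are human embryonal carcinoma cell (hECC) lines, tumour lines that resemble pluripotent embryonic cells and express the pluripotency factor SOX2. The siRNA was left on the cells for 6 hours and RNA was taken after a further 72 hours of growth. All groups were transfected, and a single siSOX2 reagent was compared with a single control siRNA, with no rescue of SOX2. The lipid reagent and the amount of siRNA were not the same in the 2 lines, and neither can be told apart from the line in any comparison between lines. The labels call the 3 replicates of each group biological.

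Serpins are large proteins that most often trap serine proteases. The protease cuts an exposed loop of the serpin, the loop inserts into the body of the serpin and the protease is distorted and locked. Clade A serpins are mostly plasma proteins of the liver, clade B serpins lack a classical secretion signal and act largely inside cells, and the remaining clades include inhibitors of clotting, fibrinolysis and complement as well as members that inhibit no protease. Type 2 cystatins are secreted proteins that block cysteine proteases such as cathepsins by filling their active site cleft, and WAP proteins carry a small disulphide-bonded fold that in SLPI and PI3 blocks neutrophil elastase and related serine proteases.

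SOX2 itself had log2 signals of 9.17, 9.30 and 8.80 on the siSOX2 arrays of 2102Ep, against 12.28, 12.21 and 12.20 on the control arrays, which left 11.4% of its control signal. In NTera-2 it had 11.92, 11.95 and 11.86 on the siSOX2 arrays, against 12.51, 12.52 and 12.63 on the control arrays, which left 64.0%. The loss of SOX2 RNA was therefore deeper in 2102Ep (log2 difference between the lines -2.49 ± 0.17 (SE), limma adjusted p = 4.87e-08). The arrays read RNA and give no level of SOX2 protein. Medians of all probe sets ran from 7.433 to 7.583 over the 12 arrays. Of 11 embryonal carcinoma marker genes, 1 was called lower after siSOX2 in 2102Ep (TERF1, -1.02) and 0 in NTera-2 (against 0.826% and 0.348% of all genes). At a limma adjusted p of 0.05 or less with no limit on the fold, 7 were lower in 2102Ep (against 5.90%) and 3 in NTera-2 (against 1.98%). In neither line was any of the 11 higher by that limit. Their mean log2 signal per array was 10.58 to 10.75 in 2102Ep siSOX2 against 11.01 to 11.22 in 2102Ep control, and 10.17 to 10.41 in NTera-2 siSOX2 against 10.36 to 10.69 in NTera-2 control.

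In 2102Ep, SLPI and CST1 rose several-fold after SOX2 knock-down, SERPINF1 fell, and most other protease inhibitors stayed near their control signal. A gene was called when its Benjamini-Hochberg adjusted p in limma was 0.05 or less, its unadjusted p was 0.01 or less and it changed by at least 2-fold. By that rule 2 of the 57 genes rose (3.51%, against 1.15% of all genes) and 1 fell (1.75%, against 0.826% of all genes). At an adjusted p of 0.05 or less with no limit on the fold, 7 rose (against 6.76% of all genes) and 2 fell (against 5.90%), or 12.3% and 3.51% of the 57. The siSOX2 and control arrays did not overlap for 18 of the 57 (31.6%), against 25.2% of all genes. The median log2 change over the 57 was -0.03, beside -0.01 over all genes. Counts this small leave the families as a whole close to the background, and what moved was a handful of single genes.

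SLPI, the secretory leukocyte protease inhibitor of mucosal fluids, had log2 signals of 9.31, 9.12 and 9.71 in 2102Ep siSOX2, against 6.63, 6.65 and 6.42 in 2102Ep control. Every siSOX2 array thus lay more than 2 log2 units above every control array. The means were 9.38 ± 0.30 in siSOX2 and 6.57 ± 0.13 in control (SD, n = 3 each), a 7.04-fold rise (log2 change 2.82 ± 0.14 (SE), 95% interval 2.52 to 3.11, limma adjusted p = 1.91e-10). This was the largest change of the 57 genes in any of the comparisons of siSOX2 with control.

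CST1 encodes cystatin SN, a cystatin best known from saliva and tears. Its log2 signals were 11.28, 10.99 and 11.19 in 2102Ep siSOX2, against 8.73, 9.25 and 8.47 in 2102Ep control. The groups did not overlap, and the control arrays were the more scattered, with means of 11.15 ± 0.15 in siSOX2 and 8.82 ± 0.40 in control (SD, n = 3 each). CST1 rose 5.04-fold (log2 change 2.33 ± 0.25 (SE), 95% interval 1.81 to 2.86, limma adjusted p = 3.52e-06).

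SERPINF1 encodes pigment epithelium-derived factor, a secreted serpin that inhibits no known protease and is studied for its effects on blood vessels and neurons. Its log2 signals were 6.67, 6.73 and 6.72 in 2102Ep siSOX2, against 7.82, 8.18 and 8.08 in 2102Ep control. The siSOX2 arrays were tightly grouped and each was lower than the lowest control array. SERPINF1 fell 2.50-fold (log2 change -1.32 ± 0.12 (SE), 95% interval -1.58 to -1.06, limma adjusted p = 5.98e-07). In bulk RNA of this kind, fewer cells that express a gene and less RNA per cell cannot be told apart.

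**Figure D1:**
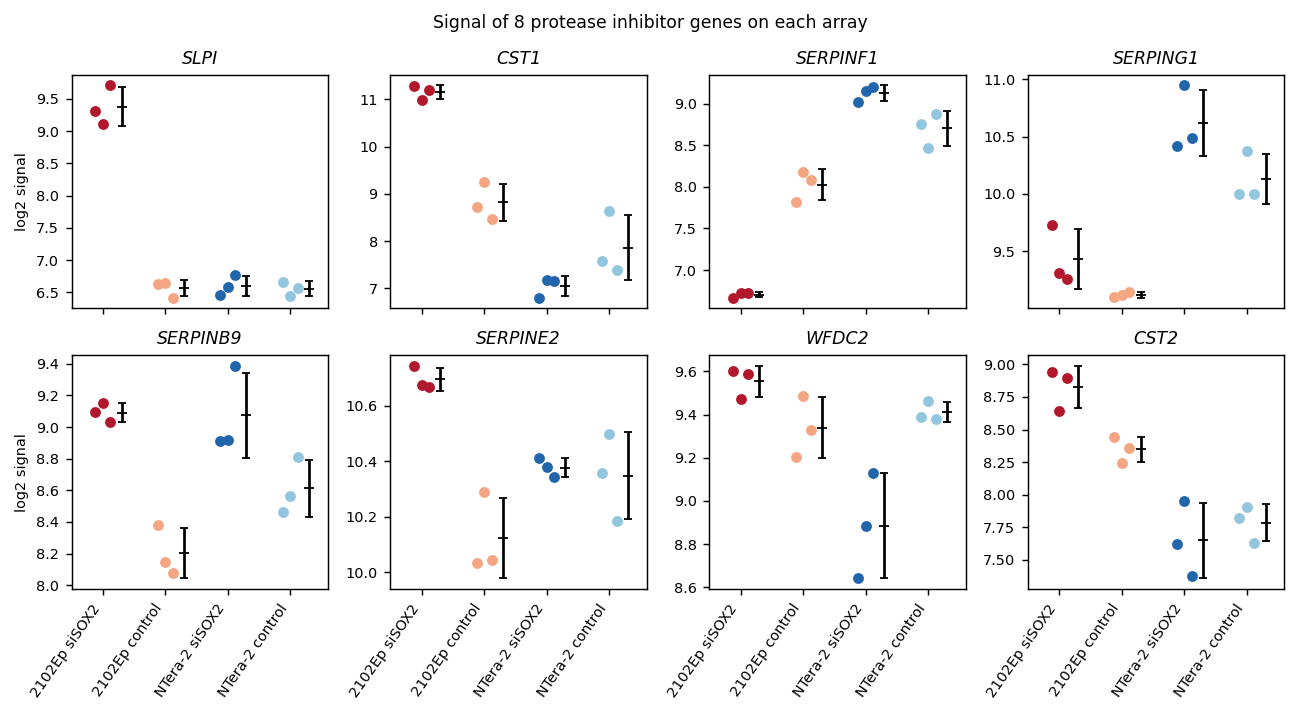
Each panel plots the log2 signal (vertical axis) of 1 gene on the 12 arrays, with 1 coloured point per array and a black bar for the mean ± SD of the 3 arrays of a group, in the order 2102Ep siSOX2, 2102Ep control, NTera-2 siSOX2 and NTera-2 control. The 3 SLPI points of 2102Ep siSOX2 lie at 9.12 or higher and the other 9 points at 6.77 or lower, CST1 is highest in 2102Ep siSOX2 and lowest in NTera-2 siSOX2, and SERPINF1 is lowest in 2102Ep siSOX2.

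A further 6 genes passed the adjusted p in 2102Ep with changes of less than 2-fold. SERPINB9, an intracellular serpin that inhibits granzyme B, had log2 signals of 9.09, 9.15 and 9.03 in siSOX2, against 8.38, 8.15 and 8.08 in control. It rose 1.85-fold with no overlap between the groups (log2 change 0.89 ± 0.14 (SE), limma adjusted p = 0.000169). SERPINE2, which encodes protease nexin-1, a secreted inhibitor of thrombin, urokinase and trypsin, had 10.74, 10.68 and 10.67 in siSOX2, against 10.03, 10.29 and 10.04 in control. It too was higher on every siSOX2 array, by 1.49-fold (log2 change 0.57 ± 0.11 (SE), limma adjusted p = 0.00113). The other 4 changes were smaller. CST2 (cystatin SA) rose by 0.48 on the log2 scale (limma adjusted p = 0.0273), SERPINB5 (maspin) by 0.36 (0.0431) and SERPINB1, an inhibitor of neutrophil elastase, by 0.34 (0.0355), and WFDC10B fell by 0.33 (0.0486). None of these 4 was firm, and leaving out single arrays took their adjusted p as high as 0.121 for CST2, 0.242 for SERPINB5, 0.131 for SERPINB1 and 0.178 for WFDC10B. For CST2 the arrays concerned were 2102Ep control 2 and 2102Ep siSOX2 1 and 3, and for SERPINB1 they were 2102Ep control 1 and 2, 2102Ep siSOX2 1 and 2 and NTera-2 control 3. SERPINB5 missed the threshold when any single array but 2102Ep control 2 or 2102Ep siSOX2 3 was left out, and WFDC10B when any but 2102Ep control 3 was.

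The remaining 48 genes did not pass the adjusted p in 2102Ep, and their log2 changes lay between -0.29 (SERPIND1, heparin cofactor II) and 0.34 (SERPINB9P1, a pseudogene next to SERPINB9). No clade A serpin passed, 0 of 12, and the member with the largest change was SERPINA1 (alpha-1-antitrypsin), with a log2 change of -0.19 ± 0.11 (SE, limma adjusted p = 0.357). Of the clade B serpins 3 of 12 passed upward, and of clades C to I 1 of 9 upward and 1 downward. Of the cystatins 2 of 10 passed upward, and of the WAP genes 1 of 14 upward and 1 downward. Over all genes 6.76% passed upward and 5.90% downward. These family counts include SERPINB1, SERPINB5, CST2 and WFDC10B, which were not firm. SERPINH1, the collagen chaperone Hsp47, had a log2 change of -0.14 ± 0.10 in 2102Ep (SE, limma adjusted p = 0.488), with means of 11.34 in siSOX2 and 11.48 in control. PI3 (elafin), the elastase inhibitor most like SLPI in function, had 6.25 in siSOX2 and 6.33 in control on average, a log2 change of -0.08 ± 0.10 (SE, adjusted p = 0.732). Of the 57 genes, 47 had a mean signal below the median of all genes, a range in which array fold changes are compressed.

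**Figure D2:**
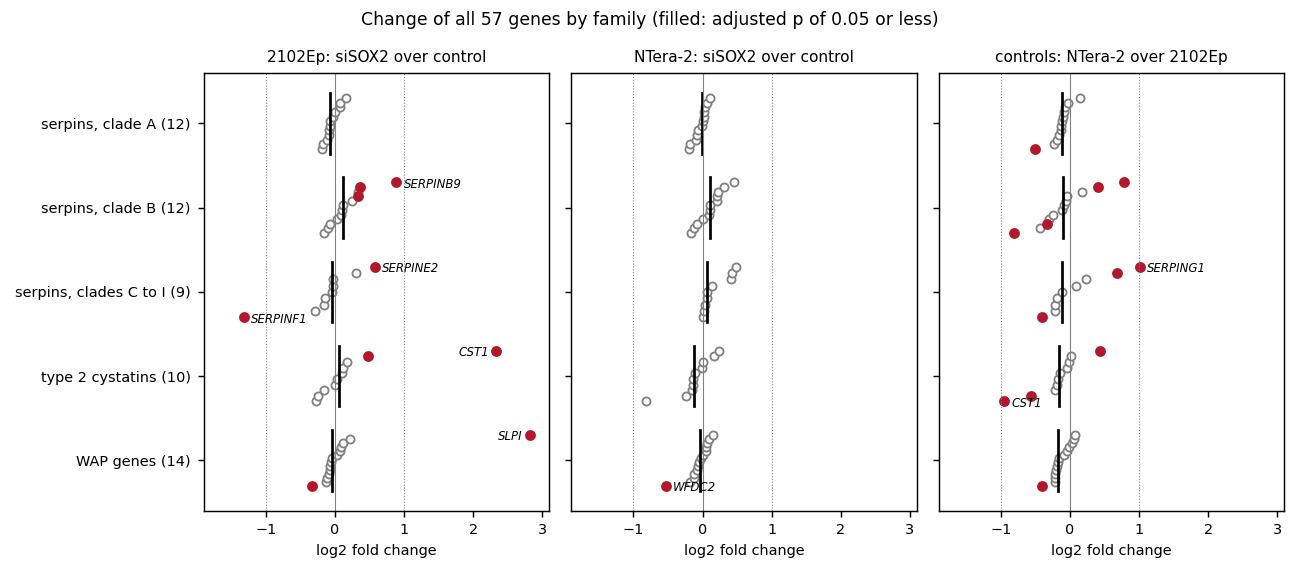
Each point is 1 of the 57 genes at its log2 fold change (horizontal axis), in rows by family with the number of genes in brackets, filled where the limma adjusted p was 0.05 or less, with a black bar at the family median and dotted lines at a 2-fold change. The left panel has 9 filled points (2102Ep, siSOX2 over control), the middle panel 1 (NTera-2, siSOX2 over control) and the right panel 12 (NTera-2 control over 2102Ep control).

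In NTera-2, where more of the SOX2 RNA signal was left, none of the 57 genes was called, 0 up (against 0.310% of all genes) and 0 down (against 0.348%). With no limit on the fold, 0 rose (against 2.96%) and 1 fell (1.75% of the 57, against 1.98%). The arrays of the 2 groups did not overlap for 13 genes (22.8%), against 21.3% of all genes, and the median log2 change was 0.01, beside 0.04 over all genes. The 1 gene that passed was WFDC2, which encodes the secreted WAP protein HE4 of epithelial tissues. WFDC2 had log2 signals of 8.64, 8.88 and 9.13 in NTera-2 siSOX2, against 9.39, 9.46 and 9.38 in NTera-2 control. All siSOX2 arrays were lower and they were spread more widely than the control arrays (log2 change -0.53 ± 0.12 (SE), 1.44-fold, limma adjusted p = 0.014). Without NTera-2 control 2 or NTera-2 siSOX2 1 its adjusted p rose above the threshold, to at most 0.0964.

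CST1 had log2 signals of 6.81, 7.18 and 7.16 in NTera-2 siSOX2, against 7.57, 8.64 and 7.38 in NTera-2 control. The siSOX2 arrays were the lower ones, but 1 control array stood more than 1 log2 unit above the other control arrays (log2 change -0.81 ± 0.25 (SE), 95% interval -1.34 to -0.29, limma adjusted p = 0.0756). Single arrays and the model moved this value across the threshold. With the replicate number as a block in the fit, limma's adjusted p for the same change was 0.0170. Without the high array, NTera-2 control 2, the change was -0.43 (limma adjusted p = 0.299), and without NTera-2 control 3 it was -1.06 and CST1 was called. SLPI had 6.45, 6.59 and 6.77 in NTera-2 siSOX2, against 6.67, 6.44 and 6.57 in NTera-2 control. Its groups overlapped (log2 change 0.05 ± 0.14 (SE), 95% interval -0.25 to 0.34, limma adjusted p = 0.939). SERPINF1 had 9.01, 9.16 and 9.20 in NTera-2 siSOX2, against 8.76, 8.47 and 8.88 in NTera-2 control. These arrays did not overlap and lay in the opposite direction to 2102Ep, with an adjusted p just over the threshold (log2 change 0.42 ± 0.12 (SE), limma adjusted p = 0.058).

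Further members with positive changes in NTera-2 that missed the adjusted p were SERPING1 (0.49 ± 0.15 on the log2 scale, adjusted p = 0.0846), SERPINB9 (0.46 ± 0.14, adjusted p = 0.0624), SERPINI1 (0.42 ± 0.14, adjusted p = 0.106) and SERPINB1 (0.30 ± 0.10, adjusted p = 0.11), with limma's SE and adjusted p. SERPING1 is the C1 inhibitor of the complement and contact pathways, and SERPINI1 is neuroserpin, an inhibitor of tissue plasminogen activator. All 9 serpins of clades C to I had a fitted change above 0 in NTera-2, from 0.00 (SERPINH1) to 0.49, while none of the 9 passed the adjusted p. Their median was 0.07, beside 0.04 over all genes, and SERPINH1, SERPINI2 (0.02) and SERPINE2 (0.03) lay below the latter. In clade A the change of SERPINA5, the protein C inhibitor, was the largest, at -0.19 (limma adjusted p = 0.586).

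The responses of the lines were then compared directly, as the log2 change in 2102Ep minus that in NTera-2. Of the 57 genes, 2 were called with a higher response in 2102Ep (against 0.989% of all genes) and 1 with a lower one (against 0.668%). With no limit on the fold, 4 were higher (against 2.53%) and 1 was lower (against 2.67%). The difference was 2.77 ± 0.20 for SLPI (SE, limma adjusted p = 1.04e-07), 3.15 ± 0.35 for CST1 (adjusted p = 2.06e-05) and -1.74 ± 0.17 for SERPINF1 (adjusted p = 4.81e-06). For WFDC2 it was 0.74 ± 0.17 (limma adjusted p = 0.0139), with a change of 0.21 in 2102Ep (adjusted p = 0.323) beside -0.53 in NTera-2. For SERPINE2 it was 0.55 ± 0.15 (limma adjusted p = 0.0455), which missed the threshold when any single array but 2102Ep control 2 or NTera-2 control 3 was left out, reaching at most 0.127. For SERPINB9 the difference of 0.43 ± 0.19 did not pass (95% interval 0.02 to 0.83, adjusted p = 0.296), and for SERPINB1 it was 0.03 ± 0.14 (95% interval -0.27 to 0.33, limma adjusted p = 0.975). The SOX2 RNA left after knock-down differed between the lines along with the reagent, and its part in these differences was not tested.

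**Figure D3:**
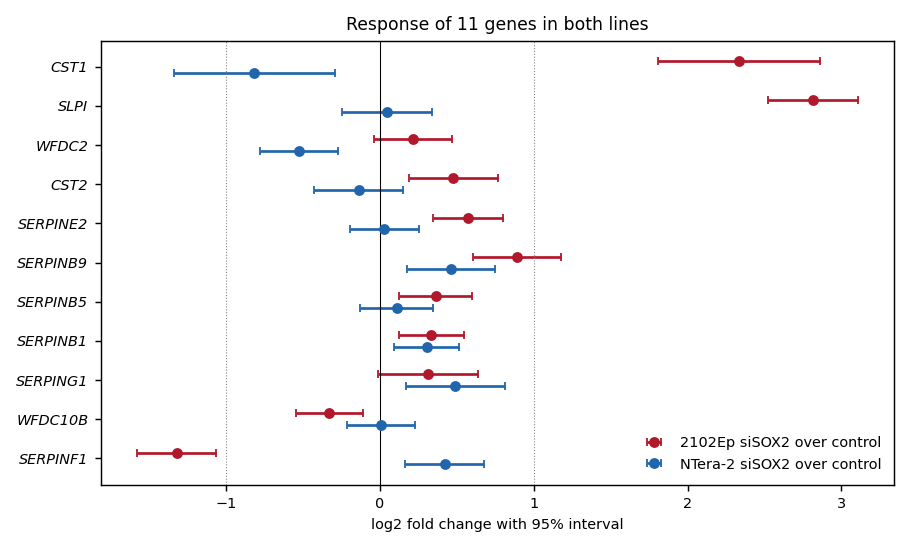
The log2 fold change of siSOX2 over control (horizontal axis) is drawn with its 95% interval for the 11 genes described singly, in red for 2102Ep and in blue for NTera-2, sorted by the difference between the lines, with dotted lines at a 2-fold change. The intervals of the lines lie apart for CST1, SLPI, SERPINF1, WFDC2, SERPINE2 and CST2, of which the difference for CST2 did not pass (0.61, limma adjusted p = 0.0848), and they nearly coincide for SERPINB1.

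Many of the genes lie side by side in the genome, which allows a change to be set beside those of its neighbours in the RefSeq gene order. SLPI lies on chromosome 20 in a run of 13 WAP genes from WFDC5 to WFDC3 that is interspersed with 8 other measured genes. In 2102Ep SLPI was the 1 called gene of the 13, and the others lay between -0.33 (WFDC10B) and 0.21 (WFDC2) on the log2 scale. Of the 8 interspersed genes, SEMG1, a major protein of seminal fluid, was called in both knock-downs, in 2102Ep with means of 6.63 in siSOX2 and 8.42 in control (log2 change -1.80, limma adjusted p = 8.38e-06) and in NTera-2 with 5.47 in siSOX2 and 7.36 in control (-1.89, adjusted p = 1.66e-05). SEMG2, which lies between SEMG1 and SLPI, had changes of -0.09 in 2102Ep and 0.03 in NTera-2. The gene between SLPI and SEMG1 thus had changes near 0 in both lines (limma adjusted p = 0.760 and 0.967).

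CST1 lies elsewhere on chromosome 20, in a run of 8 of the 10 cystatins from CST11 to CST5. The run also holds CST9L and CST13P, a cystatin-like gene and a cystatin pseudogene outside the 57, with changes of 0.08 and -0.10 in 2102Ep. In 2102Ep its nearest measured neighbours had changes of 0.10 (CST4, cystatin S, limma adjusted p = 0.776) and 0.48 (CST2), and CST5 (cystatin D) had 0.18 (adjusted p = 0.513). In NTera-2 the changes of CST4, CST2 and CST5 were -0.24, -0.14 and -0.11, with adjusted p from 0.483 to 0.813. CST3 (cystatin C), the cystatin secreted by most cell types, had means of 10.67 in siSOX2 and 10.55 in control in 2102Ep (log2 change 0.11 ± 0.12 (SE), limma adjusted p = 0.670). CST1, CST2 and CST4 are closely related copies, and how far probes of one respond to RNA of another was not tested. In 2102Ep their changes were 2.33 for CST1, 0.48 for CST2 and 0.10 for CST4.

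**Figure D4:**
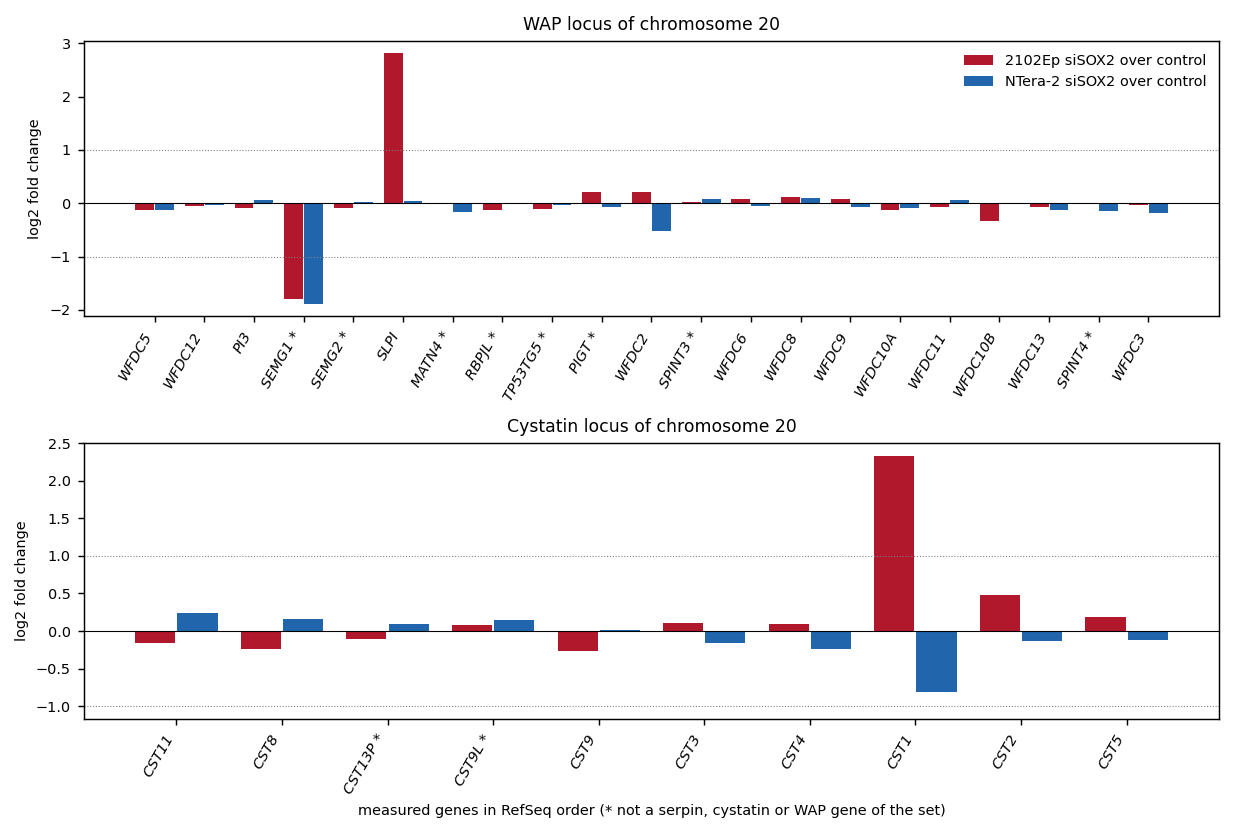
Bars give the log2 fold change of siSOX2 over control (vertical axis) in 2102Ep (red) and NTera-2 (blue) for the measured genes in RefSeq order along the WAP locus (top) and the cystatin locus (bottom) of chromosome 20, with dotted lines at a 2-fold change. SLPI and SEMG1 stand out in the WAP locus and CST1 in the cystatin locus, each beside neighbours that stay within 0.6 of 0 in both lines.

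The serpin loci held no called gene in either knock-down, where 1.98% of all genes were called in 2102Ep and 0.657% in NTera-2. The counts were 0 of 11 on chromosome 14 (clade A, SERPINA10 to SERPINA13P), 0 of 9 on chromosome 18 (clade B, SERPINB5 to SERPINB8) and 0 of 3 on chromosome 6 (SERPINB1, SERPINB9P1 and SERPINB9). With so few genes, counts of 0 do not set these loci apart from all genes. The 3 genes of chromosome 6 all had positive changes in 2102Ep (0.34, 0.34 and 0.89) and in NTera-2 (0.30, 0.22 and 0.46), of which those of SERPINB1 and SERPINB9 in 2102Ep passed the adjusted p. SERPINB3 and SERPINB4 of chromosome 18 are near-identical copies, so their signals are uncertain apart from one another.

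The promoter windows of SERPINB9 and SERPINB1, neighbours on chromosome 6 that both passed the adjusted p in 2102Ep, are shown with those of SERPINE2 and WFDC2. SERPINE2 and WFDC2 passed the adjusted p for the difference in response between the lines. Neither the pass of SERPINB1 nor that of SERPINE2 was firm. The windows come from RefSeq on GRCh38.p14, run 5′ to 3′ on the strand of the gene and cover 250 bases before to 50 bases after a listed start. That of SERPINE2 lies inside the gene, downstream of its annotated 5′ end, and does not cover that end. Capitals mark the core letters of a SOX factor site, ACAAT or its reverse complement ATTGT, and everything else is in lower case.
SERPINB9, chr6:2903260-2903559, minus strand: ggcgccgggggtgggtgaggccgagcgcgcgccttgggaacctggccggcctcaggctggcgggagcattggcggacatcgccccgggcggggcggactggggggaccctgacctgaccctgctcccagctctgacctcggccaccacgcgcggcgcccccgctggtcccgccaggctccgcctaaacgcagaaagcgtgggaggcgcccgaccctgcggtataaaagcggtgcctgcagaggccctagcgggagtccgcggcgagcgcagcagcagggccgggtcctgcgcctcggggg
SERPINB1, chr6:2841814-2842113, minus strand: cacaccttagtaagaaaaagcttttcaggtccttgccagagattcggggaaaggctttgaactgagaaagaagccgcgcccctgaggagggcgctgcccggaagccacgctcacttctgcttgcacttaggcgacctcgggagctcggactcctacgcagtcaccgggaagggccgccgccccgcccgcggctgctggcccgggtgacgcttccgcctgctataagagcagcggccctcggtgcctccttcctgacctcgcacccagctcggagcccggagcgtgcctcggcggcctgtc
SERPINE2, chr2:224031429-224031728, minus strand: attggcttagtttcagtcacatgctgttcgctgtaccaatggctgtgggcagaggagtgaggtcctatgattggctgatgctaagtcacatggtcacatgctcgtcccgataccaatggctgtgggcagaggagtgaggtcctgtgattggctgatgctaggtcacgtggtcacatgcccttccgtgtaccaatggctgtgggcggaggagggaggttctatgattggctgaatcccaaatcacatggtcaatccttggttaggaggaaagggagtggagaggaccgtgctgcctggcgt
WFDC2, chr20:45469503-45469802, plus strand: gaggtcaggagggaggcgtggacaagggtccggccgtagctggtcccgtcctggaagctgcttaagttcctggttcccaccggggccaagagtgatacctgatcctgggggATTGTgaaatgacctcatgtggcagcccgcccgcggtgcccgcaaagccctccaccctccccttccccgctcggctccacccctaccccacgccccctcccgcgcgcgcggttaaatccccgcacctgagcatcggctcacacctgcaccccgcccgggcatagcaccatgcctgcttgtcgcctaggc

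The SOX core letters occurred 0 times in the windows of SERPINB9, SERPINB1 and SERPINE2 and 1 time in that of WFDC2, at position -139 from the start. A window was found for 35 of the 57 genes, and 14 of these 35 (40%) held the letters on either strand, against 28.0% of all 27305 windows of the same length. The called genes SLPI, CST1, SERPINF1 and SERPING1 were not among the 35, so this reading covers none of them. Such a match is a description of the letters and not a bound site.

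Under the control siRNA the lines differed in a few of these genes, as seen in NTera-2 control against 2102Ep control. These control arrays are also those of the knock-down comparisons. By the same rule 1 of the 57 was called higher in NTera-2 (1.75%, against 4.49% of all genes) and 0 lower (against 3.28%). With no limit on the fold, 5 were higher (8.77%, against 21.0%) and 7 lower (12.3%, against 21.5%). Arrays did not overlap for 18 genes (31.6%), against 50.5% of all genes, and the median log2 difference was -0.13, beside -0.06 over all genes. Each of these shares lay below that of all genes, and called line differences among the 57 came down to 1 gene.

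SERPING1 had log2 signals of 10.00, 10.38 and 10.00 in NTera-2 control, against 9.10, 9.11 and 9.14 in 2102Ep control. Every NTera-2 array was higher, by 2.01-fold on average (log2 difference 1.01 ± 0.15 (SE), limma adjusted p = 4.2e-05). The difference stood at the 2-fold limit, and was 0.88 without NTera-2 control 2, 1.00 without 2102Ep control 1 and 0.92 after a further quantile normalization, each short of the call. The proteases that SERPING1 inhibits, C1R and C1S, were called lower in NTera-2 control, with log2 differences of -1.37 and -1.05.

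SERPINF1 was 1.60-fold higher in NTera-2 control, with means of 8.70 ± 0.21 there and 8.03 ± 0.19 in 2102Ep control (SD, n = 3 each, limma adjusted p = 0.000229). SERPINB9P1 (0.77), CST3 (0.43) and SERPINB9 (0.41) were also higher, though SERPINB9 lost its adjusted p of 0.0218 without 2102Ep control 2, 2102Ep control 3 or NTera-2 control 3, where it reached at most 0.124. SERPINB5, maspin, had 4.95, 4.94 and 4.87 in NTera-2 control, against 5.60, 5.86 and 5.73 in 2102Ep control. These signals are dim and did not overlap (log2 difference -0.81 ± 0.11 (SE), limma adjusted p = 1.76e-05). CST1 was lower in NTera-2 control by 1.94-fold with 1 array of NTera-2 within the 2102Ep range (log2 difference -0.95 ± 0.25 (SE), adjusted p = 0.00495), and reached the call, at -1.34 and -1.13, without NTera-2 control 2 and without 2102Ep control 3. The other lower genes were CST2 (-0.56), SERPINA1 (-0.50), SERPIND1 (-0.41), WFDC10B (-0.40) and SERPINB8 (-0.33). SLPI had means of 6.56 ± 0.12 in NTera-2 control and 6.57 ± 0.13 in 2102Ep control (SD, n = 3 each), a log2 difference of -0.01 (95% interval -0.30 to 0.28, limma adjusted p = 0.966).

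The proteases that these inhibitors act on were followed as lists. Of 59 serine proteases measured, 0 were called up (against 1.15% of all genes) and 1 down (1.69%, against 0.826%) after siSOX2 in 2102Ep. In NTera-2 0 were called in either direction (against 0.310% up and 0.348% down). The 1 called gene was C1R, the first enzyme of the classical complement cascade, at -1.52 in 2102Ep. With no limit on the fold, 7 rose (against 6.76% of all genes) and 5 fell (against 5.90%) in 2102Ep. In NTera-2 0 rose (against 2.96%) and 3 fell (against 1.98%). Of 12 cysteine proteases of the cathepsin and legumain families, 0 were called in either knock-down (against 1.98% of all genes in 2102Ep and 0.657% in NTera-2). The median log2 change was 0.12 in 2102Ep and -0.03 in NTera-2. With no limit on the fold, 4 of the 12 rose in 2102Ep (against 6.76% of all genes) and 1 fell (against 5.90%). In NTera-2 1 rose (against 2.96%) and 0 fell (against 1.98%). For the difference in response, 3 were higher in 2102Ep by that limit (against 2.53%) and 0 lower (against 2.67%). Between the control lines, 0 serine proteases were called higher in NTera-2 (against 4.49% of all genes) and 7 lower (11.9%, against 3.28%), among them ST14 (matriptase, -2.19), KLK6 (-1.92) and PRSS8 (prostasin, -1.35), and 2 of the 12 cathepsin and legumain genes were called higher (16.7%, against 4.49%), CTSK (1.07) and CTSV (1.04).

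Inhibitors of other families, and receptors, were read in the same way. Of 42 other protease inhibitors, SPOCK1, a testican proteoglycan, was the 1 called in 2102Ep, at -1.39 (2.38%, against 0.826% of all genes called lower). TFPI2, a Kunitz inhibitor, was the 1 called in NTera-2, at -1.05 (2.38%, against 0.348%). Both had lower means after siSOX2 in the other line as well. SPOCK1 had 7.79 in NTera-2 siSOX2 and 8.48 in control, and TFPI2 had 8.92 in 2102Ep siSOX2 and 9.83 in control. Neither was called for the difference in response. Between the control lines 0 of the 42 were called higher in NTera-2 and 8 lower (19.0%, against 3.28% of all genes), led by SPINT2 (-2.35), which inhibits matriptase and hepsin, and HRG (histidine-rich glycoprotein, -2.25). Of 14 receptors and binding partners of serpins, 0 were called in either knock-down (against 1.98% of all genes in 2102Ep and 0.657% in NTera-2). The difference in response between the lines was called for LRP2 (megalin, an uptake receptor, 1.05), C1R (-1.03) and SPINK1 (-1.03). Between the control lines VLDLR was higher in NTera-2 (1.67) and PROCR, the protein C receptor, was lower (-1.42).

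SLPI, WFDC2 and CST1 are genes of secretory epithelia, so markers of that and other cell types were read beside them. Of 8 secretory epithelium markers, KRT19 (1.5) and CLDN4 (1.19) were called higher after siSOX2 in 2102Ep (25%, against 1.15% of all genes). In NTera-2 0 were called (against 0.310%), and 1 passed the adjusted p upward. KRT19 had means of 9.67 in NTera-2 siSOX2 and 8.69 in NTera-2 control, and CLDN4 had 6.66 and 6.56. The difference in response between the lines was called for CLDN4 (1.08) and not for KRT19. The mean log2 signal of the 8 per array was 8.21 to 8.28 in 2102Ep siSOX2 against 8.01 to 8.12 in 2102Ep control, and 7.55 to 7.64 in NTera-2 siSOX2 against 7.39 to 7.48 in NTera-2 control. The median log2 change of the 8 in 2102Ep was -0.14, beside -0.01 over all genes, so the higher list mean went with the 2 called markers. The part of these markers in the change of SLPI and CST1 was not tested. Of 6 keratinocyte, 6 leukocyte, 10 hepatocyte and 8 trophoblast markers, 0 were called in either knock-down. Over all genes 1.98% were called in 2102Ep and 0.657% in NTera-2. Of 8 mesenchyme markers, POSTN was the 1 called, at -1.69 in NTera-2 (12.5%, against 0.348% of all genes called lower). With no limit on the fold, 3 of the 8 rose in NTera-2 (against 2.96% of all genes) and 2 fell (against 1.98%). Their median log2 change there was 0.20, beside 0.04 over all genes. In 2102Ep 1 rose and 1 fell by that limit.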

How the data were processed

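RNA of 12 cultures was hybridised to Affymetrix Human Gene 1.0 ST arrays, which read 1 colour from probes spread over each transcript. The deposited table holds a log2 signal for each probe set. According to the methods, the authors obtained it by the RMA procedure, which corrects background, quantile-normalizes probes and summarises them by median polish. The log base is not stated and was taken as log2 from their range, 1.57 to 14.98. Such values compress dim signals, so folds of dim genes tend to be understated. Precision is limited by the number of arrays. The table had 32321 probe sets, of which 19158 were annotated to 1 gene, 1388 to several and 11775 to none. Only the first were named, with the probe set of highest mean used for the 637 genes with several. Of 18404 genes, 18376 took a current symbol from RefSeq (GRCh38.p14) and 28 kept the array's.

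A mean per group was fitted to all 12 arrays with limma 3.58.1 (lmFit, contrasts, eBayes) under R 4.3.3. Calls required 3 things: an adjusted p (Benjamini-Hochberg, over all genes of a contrast) of at most 0.05, an unadjusted p of at most 0.01 and a change of at least 2-fold. For a single gene with 3 arrays a side, the smallest two-sided p of an exact permutation test is 0.1, and limma's p-values therefore lean on the variance shared among genes. The fitting code was tested on simulated data with known changes. Genes were described singly where they were called or passed the adjusted p after siSOX2, or had the largest change of their family, and the others where they lie in a locus, passed the adjusted p between the control lines or help to place a change (chosen after their values were seen). The members, the families and the lists of proteases, receptors, other inhibitors and markers of embryonal carcinoma, secretory epithelium, keratinocyte, leukocyte, hepatocyte, trophoblast and mesenchyme were chosen with earlier results of these data known. Alternatives were median centring, a further quantile normalization, no dim genes, all probe sets, no fold threshold, only the groups compared, a trended robust variance, the replicate number as a block and each array left out.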

Additional observations from a re-analysis of the deposited data

Results flagged for a closer look

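The response to siSOX2 differed between 2102Ep and NTera-2 for 5 of the 57 genes (8.77%, against 5.20% of all genes). This was limma's test of the difference itself (log2 change in 2102Ep minus that in NTera-2), at an adjusted p of 0.05 or less. The difference was 3.149 for CST1, 2.768 for SLPI, 0.7409 for WFDC2, 0.545 for SERPINE2 and -1.742 for SERPINF1. That of SERPINE2 was not firm, since its limma adjusted p of 0.0455 missed the threshold under 11 of 18 alternatives, 10 of them single arrays left out, and reached at most 0.127. All 3 arrays of siSOX2 lay above all 3 control arrays in 2102Ep and below them in NTera-2 for CST1, and the reverse held for SERPINF1. Neither change in NTera-2 passed by itself (limma adjusted p = 0.0756 for CST1 and 0.058 for SERPINF1). Arrays did not overlap for 25.2% of all genes in 2102Ep and 21.3% in NTera-2. Line, transfection reagent, siRNA amount and the SOX2 RNA signal left after knock-down (11.4% in 2102Ep and 64.0% in NTera-2) cannot be told apart in these differences.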

How the results depend on the processing

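Among the values of single genes recomputed under the alternatives, 401 kept their direction and their side of the call. A further 2 came to pass it, 3 no longer passed it and 0 reversed. Only values that passed the adjusted p in the main fit were counted, so the change of CST1 in NTera-2 was not among them. The call has a fold limit, so a smaller change that lost its adjusted p still kept its side. In 2102Ep WFDC10B lost it under 16 of 18 alternatives and SERPINB5 under 14 of 18. The difference in response of SERPINE2 lost it under 11 of 18. The changes of SLPI, CST1 and SERPINF1 in 2102Ep lost it under 0. Counts of called genes among the 57 stayed within 1.5 times of the stated count in 71 cases and moved in 8. With no fold threshold they were 9 in 2102Ep, 1 in NTera-2, 5 for the difference in response and 12 between the control lines, and after a further quantile normalization the last was 0. Leaving out each array in turn gave 3 throughout in 2102Ep and for the difference, 0 to 1 in NTera-2 (1 without NTera-2 control 3, CST1) and 0 to 2 between the control lines (0 without 2102Ep control 1, and 2, SERPING1 and CST1, without 2102Ep control 3). Without NTera-2 control 2 the 1 called gene was CST1 in place of SERPING1. SLPI, whose mean over the arrays lies below that of the median gene, was not tested once dim genes were left out. Its change in 2102Ep otherwise ran from 2.65 to 2.95, that of CST1 from 2.16 to 2.55 and that of SERPINF1 from -1.43 to -1.24.

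Same-numbered siSOX2 and control arrays had deviations that correlated at r = 0.07, 0.18 and 0.13 in 2102Ep and at -0.25, -0.21 and 0.14 in NTera-2. Differently numbered arrays ran from -0.39 to 0.30 in 2102Ep and from -0.23 to 0.34 in NTera-2. So few values cannot show whether the numbers pair the arrays, and the main fit did not pair them. With the replicate number as a block, 3 of the 57 genes were called in 2102Ep, 0 in NTera-2, 3 for the difference and 1 between the control lines. The block left the small changes of SERPINB1, SERPINB5 and WFDC10B in 2102Ep with limma adjusted p of 0.0611, 0.0684 and 0.0756 and the difference in response of SERPINE2 with 0.0669, and the first 3 also missed the threshold when only the 2102Ep arrays were fitted. In the other direction, the change of CST1 in NTera-2, -0.81, passed under the block (limma adjusted p = 0.0170). Dim signals limit what can be seen, since 47 of the 57 genes lay below the median gene.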
